A study of Mus musculus with 56 samples.

Results

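Chemokines and their receptors were examined in visceral adipose tissue (VAT) of mice on daytime-restricted feeding (DRF) and on nighttime-restricted feeding (NRF, the reference). The members were taken by gene name: protein-coding genes called Ccl, Cxcl, Cx3cl or Xcl with a number, the receptors Ccr, Cxcr, Cx3cr and Xcr with a number, and the atypical receptors Ackr1 to Ackr4. Of 25939 genes in the data, 53 were members, comprising 34 ligands, 15 receptors and 4 atypical receptors. With a mean of at least 10 reads over all libraries, 40 of them were tested, 24 ligands, 12 receptors and all 4 atypical receptors, among 17268 genes tested.

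All mice were female C57BL/6J animals of 9 weeks, kept in a cycle of 12 h light and 12 h dark. Entrainment lasted 7 days, with a starting age of 7 weeks. Normal chow was offered in the light phase (DRF) or the dark phase (NRF) for the last 7 days. Polyadenylated RNA of VAT was sequenced from 4 mice at each of 7 times from ZT0 to ZT24 (zeitgeber time, with lights on at ZT0) under each regimen, so that 14 groups and 56 libraries were available, 1 mouse each. ZT0 and ZT24 are the same time of day but different mice. The labels name no transgene or deletion, and freely fed mice were not among the groups.

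Chemokines are small secreted or membrane-bound proteins that guide leukocytes along a gradient by engaging G protein-coupled receptors, and the position of their first cysteines gives the CC, CXC, CX3C and XC families. Atypical receptors bind chemokines without G protein signalling and take them up, which shapes the gradient. In fat, Ccl2 and its relatives draw Ccr2-bearing monocytes that become macrophages, Ccl11 and Ccl24 draw eosinophils, and Cxcl12 from stromal cells retains Cxcr4-bearing cells. Monocyte chemokine expression is also known to follow the time of day in several tissues.

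Between 25.8 and 35.0 M reads per library were recovered from the deposited values, with a median of 29.6 M under DRF and 30.3 M under NRF. Levels are given below as CPM, the reads of a gene scaled to an effective library size. This size was taken from the deposited values (31.8 to 47.3 M) and differs from the recovered total. Differences are given on the log2(CPM + 1) scale, which understates the change of genes near or under 1 CPM. Adipocyte markers summed to 7093 to 11197 CPM in 54 libraries, over 6 of the 8 listed genes. A pair of DRF libraries, replicate 4 at ZT0 and replicate 1 at ZT8, stood apart. Their adipocyte sums were 5301 and 3496 CPM, and their sums of 8 uterine and oviduct epithelial markers were 1114 and 466 CPM against 18.6 to 78.8 CPM in the other DRF libraries and 25.4 to 76.1 CPM under NRF. Their sums of 9 neutrophil markers were 4269 and 161 CPM, against 16.1 to 53.9 CPM in the other DRF libraries and 15.9 to 79.5 CPM under NRF. Which genes carried these sums is not given, so they do not show that neutrophils were present in this pair. Changes of call in mean level and rhythm difference without this pair are given with the members, and those at single time points with the counts by time of day.

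Levels per kilobase of exon covered a wide range, and ligands led. Ccl6, a CC ligand of macrophages and other myeloid cells, had the highest level at 62.4 CPM per kb. Ccl11 (eotaxin) followed at 36.6 CPM per kb and Cxcl12 at 28.5 CPM per kb. The highest receptor was the atypical receptor Ackr3, a scavenger of Cxcl12, at 18.3 CPM per kb. The signalling receptors were lower, with Cxcr4 at 4.54 and Ccr2 at 4.39 CPM per kb. Ccl9 with 17.4, Ccl8 with 14.7, Ccl24 with 11.1, Cxcl9 with 9.14 and Cxcl13 with 8.18 CPM per kb lay between them. The 13 members under 10 reads on average were Ccl3, Ccl4, Ccl17, Ccl21a on chromosome 4, Ccl21b, Ccl26, Ccl27, Ccl27b, Cxcl2, Xcl1, Ccr4, Ccr6 and Ccr8, with means of 0.554 to 9.91 reads. They were left out by this filter, and without any filter 16 members differed in rhythm instead of 14 and 13 in mean level instead of 15. Ccl21a, Ccl21b, Ccl27, Ccl27a and Ccl27b have near-identical copies, so that reads could be split or lost among them.

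**Figure D1:**
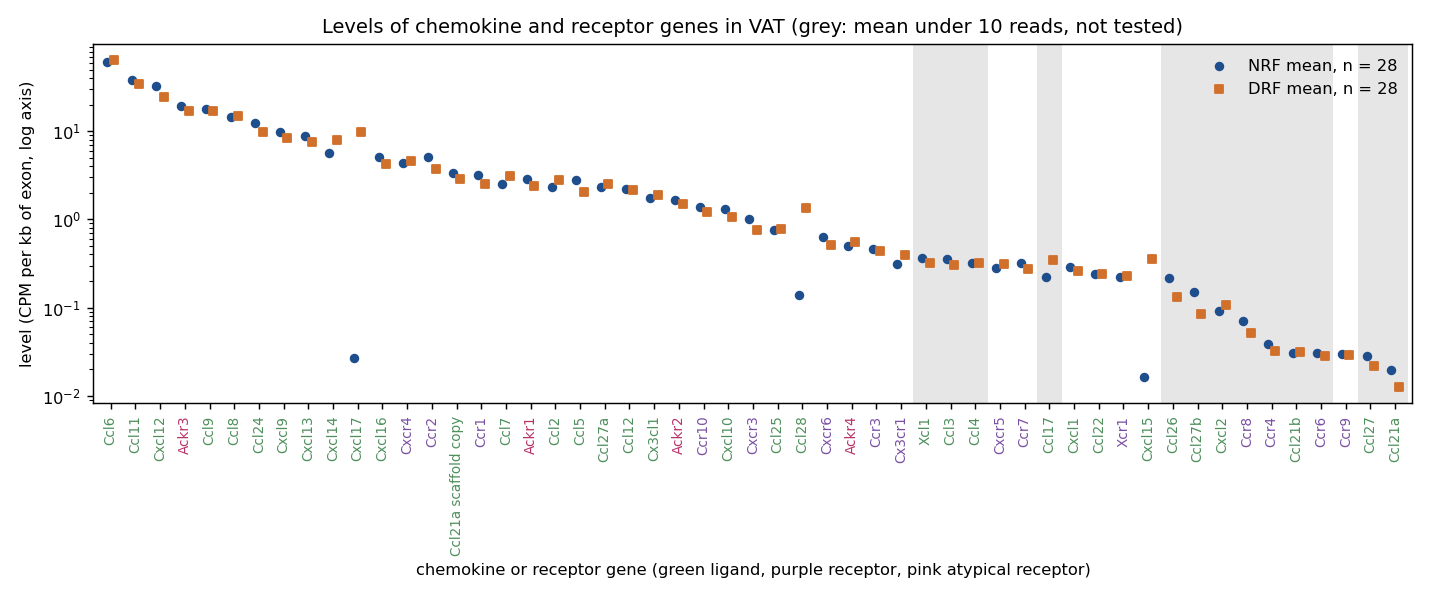
Mean level of each member under NRF and DRF (28 mice each), in CPM per kilobase of exon on a log axis, ordered by the mean over all libraries; grey columns mark the 13 members that were not tested. Ccl6 leads with 62.4 CPM per kb, and the DRF means of Cxcl17, Ccl28 and Cxcl15 include the pair of libraries that stand apart.

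Over the whole day, 13 of the 40 members were lower under DRF and 2 were higher (limma with a 24-h cosine per regimen, Benjamini-Hochberg adjusted p under 0.05 over all genes tested). Of all genes tested, 16.1% were lower and 17.2% were higher. The members thus had 32.5% lower and 5.00% higher. The median difference of the members was -0.06 on the log2 scale, and 23 of the 40 values were negative. Among ligands, 7 of 24 were lower and 2 higher. Among signalling receptors, 4 of 12 were lower and 8 did not pass. Of the 4 atypical receptors, 2 were lower. The median standard error was 0.08, so that changes much under 0.2 on this scale were hard to detect. In bulk tissue, fewer cells of a type and less RNA per cell cannot be told apart.

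**Figure D2:**
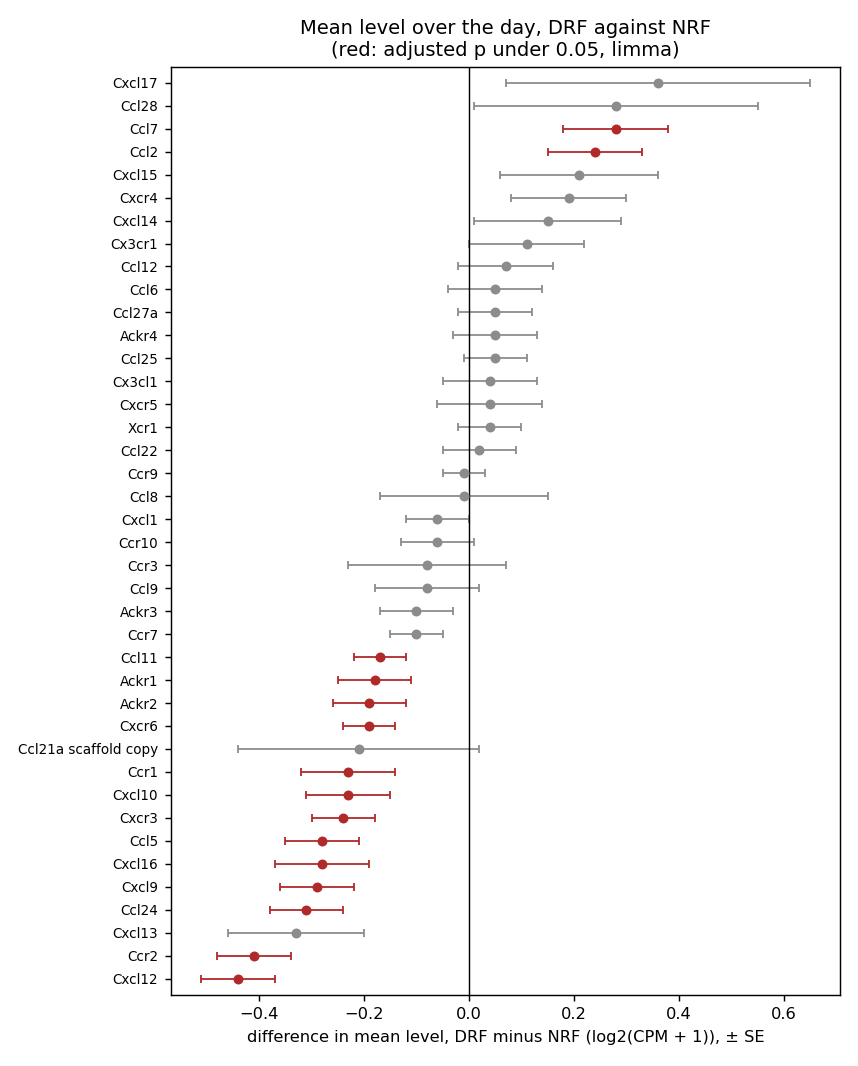
Difference in mean level over the day between DRF and NRF for the 40 members tested, on the log2(CPM + 1) scale, with its standard error; red marks an adjusted p under 0.05. Cxcl12 and Ccr2 have the largest falls, and Ccl2 and Ccl7 are the red points on the positive side.

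Diurnal rhythms were tested in each regimen. Under NRF, 16 of 40 members were rhythmic (40%), against 47.4% of all genes. Under DRF, 8 of 40 were rhythmic (20%), against 28.4% of all genes. Both tests combined JTK_CYCLE and Lomb-Scargle p-values for a period of 24 h, with Benjamini-Hochberg adjustment. By a limma F test of the cosine, 15 members were rhythmic under NRF and 12 under DRF. Rhythms under both regimens were found for 6 members (15.0%, against 18.9% of all genes), namely Ccl2, Ccl7, Ccl12, Cx3cr1, Ackr3 and Ackr4. With the mice of 1 replicate number left out, 1 to 5 members were rhythmic under both regimens with a phase shift. Rhythms under NRF alone passed for 10 members, Ccl11, Ccl28, Cx3cl1, Cxcl9, Cxcl12, Cxcl14, Cxcl16, Ccr1, Ccr10 and Cxcr4. Rhythms under DRF alone passed for Ccl6 and Cxcl13. The NRF rhythm was lost in 2 of 11 alternatives for Ccl2, Ccr1, Cxcl12 and Cxcl14, in 1 of 11 for Cx3cl1, Cxcr4 and Ackr3, and in 1 of 10 for Ccl7, Ccl12 and Ccr10. Passing in 1 regimen does not show that the rhythm differed, so the difference itself was tested in limma. It passed for 14 of 40 members (35.0%), against 51.2% of all genes, and without the pair of DRF libraries for 19, against 57.4% of all genes in that fit.

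The peaks of the 6 members rhythmic under both regimens were compared. Whether the shifts differed between members was not tested. The fitted shift from NRF to DRF was 10.6 h ± 1.08 (SE) for Ccl12, 8.28 h ± 1.14 for Ccl2, 7.61 h ± 1.28 for Ccl7, 8.17 h ± 1.23 for Ackr4, -7.02 h ± 1.36 for Ackr3 and 2.81 h ± 0.976 for Cx3cr1. All 6 shifts passed the Wald test, as did 94.6% of the 3263 genes rhythmic under both regimens, with adjusted p from 6.56e-13 for Ccl12 to 0.00643 for Cx3cr1. A shift of at least 8 h, as in Ccl12, Ccl2 and Ackr4, was found for 73.1% of those genes. A shift of at most 4 h, as in Cx3cr1, was found for 9.35%. The 95% intervals with all libraries were 5.99 to 10.6 h for Ccl2, 5.71 to 10.6 h for Ackr4 and 8.44 to 12.8 h for Ccl12. With the pair, ZT24 or the mice of 1 number left out, the shift was 7.62 to 9.08 h for Ccl2. It was 7.10 to 9.00 h for Ackr4 and 9.93 to 11.8 h for Ccl12 in these fits.

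**Figure D3:**
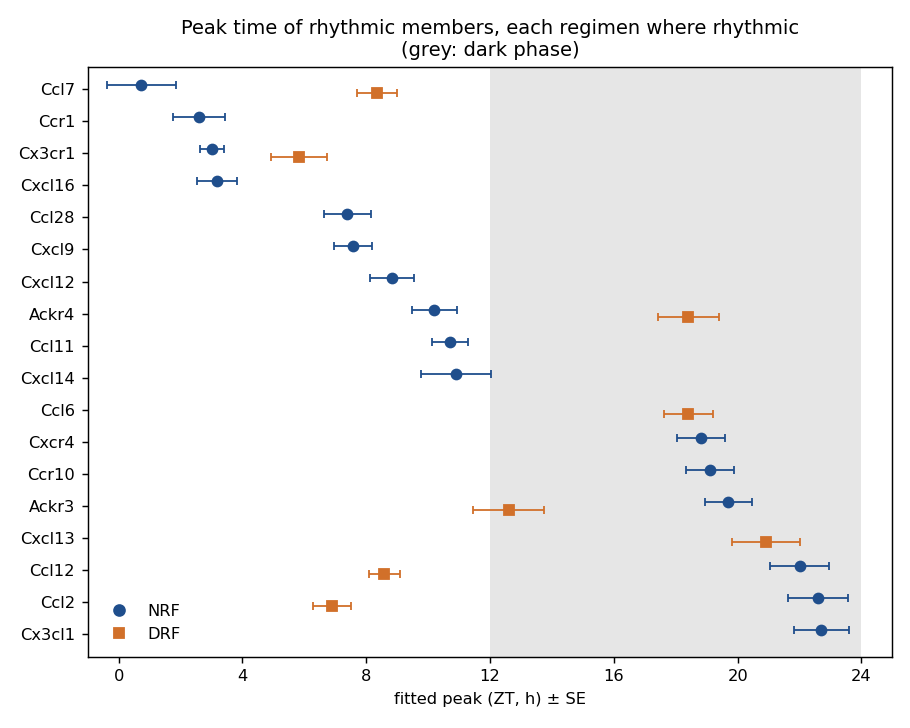
Fitted peak time (ZT, in hours) with its standard error for the 18 members that were rhythmic under NRF (circles) or DRF (squares), each shown only for the regimen in which it was rhythmic; grey marks the dark phase. Under DRF, Ccl2 at 6.89 h, Ccl12 at 8.58 h and Ccl7 at 8.34 h peak in the light phase, and Ccl6, Ackr4 and Cxcl13 peak in the dark phase.

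The monocyte-attracting ligands Ccl2, Ccl7 and Ccl12, which act through Ccr2, oscillated under both regimens and peaked in the light phase under DRF. Ccl12 was at 0.117, 0.465, 0.771 and 0.447 CPM at ZT8 under NRF and at 1.67, 2.59, 1.91 and 2.09 CPM at ZT8 under DRF. These mice did not overlap, and the DRF values were higher by 1.09 ± 0.22 (SE) on the log2 scale (limma, adjusted p = 1.87e-04). At ZT24, the order was reversed, with 0.899, 1.10, 1.80 and 3.86 CPM under NRF and 0.646, 0.440, 0.406 and 0.538 CPM under DRF. The groups again did not overlap, and DRF was lower by 0.85 ± 0.22 (a difference of -0.85, adjusted p = 0.00449). At ZT0, the same time of day in other mice, Ccl12 was at 2.06, 2.34, 0.644 and 1.73 CPM under NRF and at 0.483, 0.764, 0.697 and 2.01 CPM under DRF. These groups overlapped, and the difference did not pass (-0.45 ± 0.22, adjusted p = 0.153), whereas it passed without the pair, to which the highest DRF mouse belongs. Ccl12 peaked at 22.0 h ± 0.951 under NRF and at 8.58 h ± 0.508 under DRF. Its peak-to-trough range was 0.81 ± 0.19 and 1.16 ± 0.16 on the log2 scale. The mean level of Ccl12 over the day did not pass the test (0.07 ± 0.09, adjusted p = 0.583).

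The RefSeq promoter of Ccl12, 250 bases before to 50 after the start site (chr11:82101595-82101894, plus strand, GRCm38.p6), is shown as that of the member with the largest shift among the 6 rhythmic under both regimens. Capitals here and below mark matches to the letters searched on both strands. The E-box was searched as CACGTG and the D-box as TTANGTAA. The ROR half-site was searched as AGGTCA. The half-site of the glucocorticoid receptor was searched as AGAACA. The GAS motif was searched as TTCNNNGAA, the TATA box as TATAAA. The kappa B motif was searched loosely, as GGG and CC with any 5 bases between them.
Ccl12: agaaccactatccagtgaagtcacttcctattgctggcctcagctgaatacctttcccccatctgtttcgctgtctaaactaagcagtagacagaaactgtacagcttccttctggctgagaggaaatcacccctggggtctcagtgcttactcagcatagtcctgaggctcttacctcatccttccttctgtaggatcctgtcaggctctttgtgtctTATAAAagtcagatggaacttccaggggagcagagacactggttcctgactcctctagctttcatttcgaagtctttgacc
The capitals are a TATA box match that starts at -31 relative to the start site. TATAAA was present in 13.6% of all 32851 promoters in the table and in the promoters of 13 of 39 members that the table holds. Here and below, a member was counted if any of its promoters in the table matched. The share of all promoters counts each promoter on its own, so the member counts cannot be read as an excess over it.

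Ccl2, a main monocyte chemoattractant of fat, was at 1.28, 1.97, 2.01 and 1.07 CPM at ZT8 under NRF and at 3.29, 3.67, 8.64 and 3.54 CPM at ZT8 under DRF. All 4 DRF mice were above all 4 NRF mice, by 1.10 ± 0.24 on the log2 scale (adjusted p = 7.26e-04), and replicate 3 was the highest. At ZT12, Ccl2 was at 1.14 to 1.75 CPM under NRF and 2.55 to 4.35 CPM under DRF (0.88 ± 0.24, adjusted p = 0.00581). The peak lay at 22.6 h ± 0.961 under NRF and at 6.89 h ± 0.614 under DRF. Ccl7, a close relative that also engages Ccr2, was at 0.785, 0.921, 1.61 and 0.974 CPM at ZT12 under NRF and at 4.42, 6.49, 3.87 and 3.33 CPM under DRF. The groups did not overlap, and the difference was 1.40 ± 0.27 on the log2 scale (adjusted p = 1.14e-04). Ccl7 peaked at 0.730 h ± 1.11 under NRF and at 8.34 h ± 0.648 under DRF. The peak-to-trough range of Ccl2 was 0.77 ± 0.18 under NRF and 1.12 ± 0.20 under DRF, and that of Ccl7 was 0.75 ± 0.19 and 1.26 ± 0.22. The amplitude of the fit runs from mean to peak, not from peak to trough. Its differences between the regimens, 0.18 ± 0.13 for Ccl2 and 0.26 ± 0.15 for Ccl7, were within about 2 standard errors.

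Over the day, Ccl2 ranged from 1.07 to 5.38 CPM with a median of 2.53 under NRF and from 1.32 to 8.64 CPM with a median of 2.72 under DRF. Ccl7 ranged from 0.785 to 4.83 CPM with a median of 1.68 under NRF and from 0.865 to 6.49 CPM with a median of 2.12 under DRF. The ranges overlapped broadly. The mean level passed the test as higher under DRF for both, by 0.24 ± 0.09 for Ccl2 (adjusted p = 0.0377) and 0.28 ± 0.10 for Ccl7 (adjusted p = 0.0328). These calls were lost in 8 of 15 alternative fits for Ccl2 and in 7 of 14 for Ccl7, with adjusted p up to 0.227 and 0.132. Both were lost with scaling by total recovered reads. Ccl8, the fourth ligand of this class, ranged from 3.58 to 18.3 CPM under NRF and 2.73 to 23.4 CPM under DRF and passed none of the tests (difference -0.01 ± 0.16, adjusted p = 0.962; rhythm difference, adjusted p = 0.773).

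**Figure D4:**
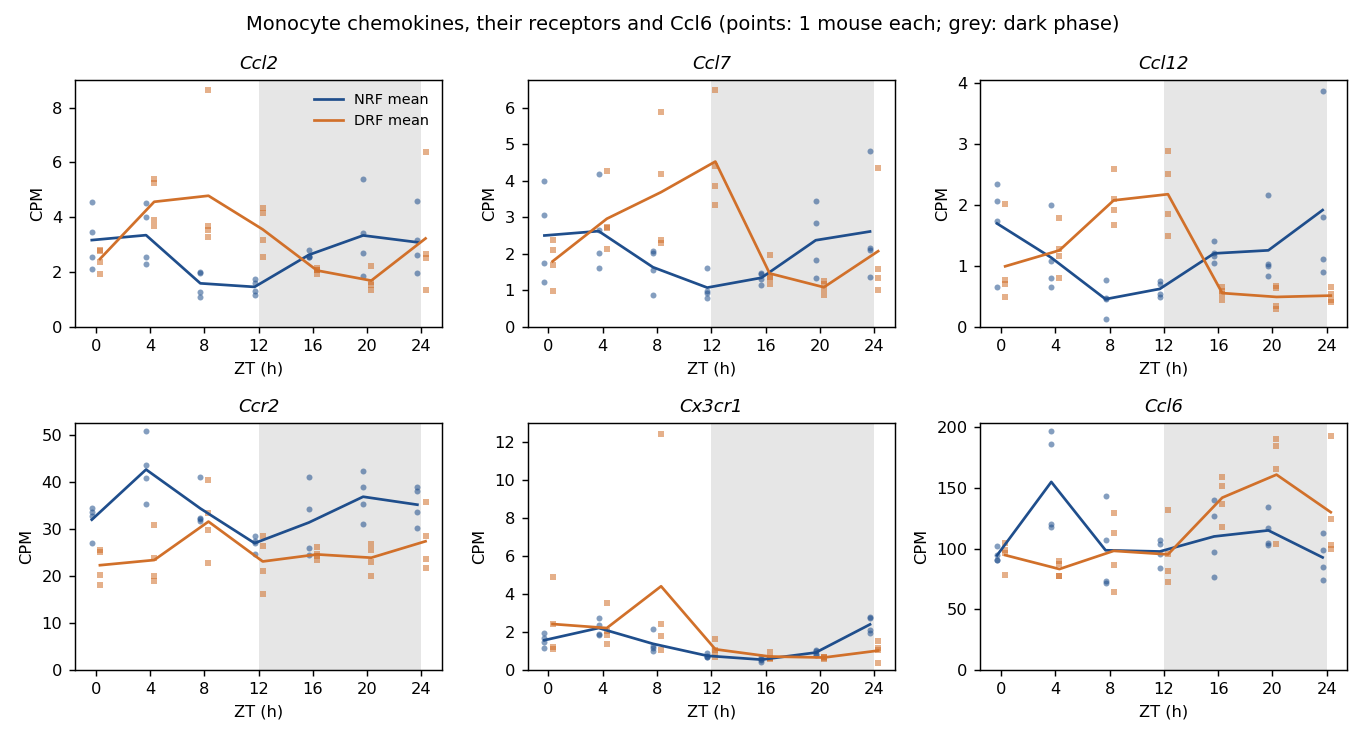
CPM over zeitgeber time for Ccl2, Ccl7, Ccl12, Ccr2, Cx3cr1 and Ccl6; each point is 1 mouse, lines join the means of 4 mice, blue is NRF, orange is DRF and grey marks the dark phase. At ZT8 and ZT12 the DRF means of Ccl2, Ccl7 and Ccl12 are above their NRF means, at ZT20 they are below them, and the DRF mean of Ccr2 is under its NRF mean at all 7 time points.

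Ccr2, the receptor of these ligands on inflammatory monocytes, was lower under DRF. It ranged from 24.4 to 50.9 CPM with a median of 33.6 under NRF and from 16.2 to 40.5 CPM with a median of 24.5 under DRF. The ranges overlapped, and the DRF mean was lower at 7 of 7 time points. The difference was -0.41 ± 0.07 on the log2 scale (adjusted p = 9.84e-06), and the call held in all 15 alternative fits, with differences of -0.45 to -0.27. At ZT4 the NRF mice were at 35.4, 43.6, 40.8 and 50.9 CPM and the DRF mice at 23.9, 30.8, 19.0 and 19.9 CPM. No values overlapped (-0.85 ± 0.16, adjusted p = 1.12e-04). A rhythm of Ccr2 was not detected under NRF (adjusted p = 0.262) or under DRF (adjusted p = 1.000).

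Ccr1, a receptor of inflammatory CC ligands on monocytes and neutrophils, was lower under DRF and rhythmic under NRF. It ranged from 4.10 to 15.7 CPM with a median of 7.84 under NRF and from 3.30 to 12.5 CPM with a median of 6.81 under DRF. Ccr1 was at 12.8, 12.6, 15.7 and 14.8 CPM at ZT4 under NRF and at 9.05, 8.65, 8.35 and 8.78 CPM at ZT4 under DRF, without overlap (-0.62 ± 0.24, adjusted p = 0.0390). Its range under NRF was 0.84 ± 0.18 on the log2 scale. Its mean level was lower under DRF by a small margin (-0.23 ± 0.09, adjusted p = 0.0488), a call lost in 9 of 15 alternatives. Among these were the fit without the pair (-0.20, adjusted p = 0.0835) and the one with the macrophage marker level as a covariate (-0.06, adjusted p = 0.684). The rhythm difference of Ccr1 did not pass (adjusted p = 0.0841).

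The macrophage inflammatory ligands were split. Ccl5, which recruits T cells and monocytes, ranged from 1.42 to 4.59 CPM with a median of 2.48 under NRF and from 1.22 to 3.25 CPM with a median of 1.95 under DRF. Its ranges overlapped, and the difference was -0.28 ± 0.07 (adjusted p = 0.00249), called in all 14 alternatives in which it was tested. Ccl6 and Ccl9, neighbours that are abundant in myeloid cells, did not pass for mean level, with differences of 0.05 ± 0.09 for Ccl6 (adjusted p = 0.729) and -0.08 ± 0.10 for Ccl9 (adjusted p = 0.539). Their course over the day differed between the regimens (adjusted p = 0.0112 and 0.0267). Ccl6 was at 118, 120, 186 and 197 CPM at ZT4 under NRF and at 77.4, 87.5, 77.5 and 89.9 CPM at ZT4 under DRF, without overlap (-0.86 ± 0.22, adjusted p = 0.00239). At ZT20 it was at 103, 134, 117 and 105 CPM under NRF and at 104, 185, 166 and 190 CPM under DRF, where the groups overlapped (0.45 ± 0.22, adjusted p = 0.139). Ccl6 was rhythmic under DRF (adjusted p = 0.0183) with a peak at 18.4 h ± 0.789 and a range of 0.86 ± 0.20, a call lost in 3 of 11 alternatives with adjusted p up to 0.0967. Under NRF no rhythm was detected, with a range of 0.14 ± 0.21. Ccl9 at ZT4 was 76.2 ± 17.0 CPM (SD, n = 4) under NRF and 38.6 ± 4.07 CPM under DRF (-0.94 ± 0.23, adjusted p = 0.00179).

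The eosinophil-attracting ligands Ccl11 and Ccl24 were lower under DRF. Ccl24 (eotaxin-2) ranged from 9.04 to 21.0 CPM with a median of 16.2 under NRF and from 6.80 to 17.3 CPM with a median of 13.2 under DRF. The ranges overlapped, the DRF mean was lower at 7 of 7 time points, and the difference was -0.31 ± 0.07 (adjusted p = 9.85e-04), a call lost in 1 of 15 alternatives, that with the macrophage marker level as a covariate (-0.17, adjusted p = 0.0633). Ccl11 had a strong rhythm under NRF, with a peak at 10.7 h ± 0.574 and a range of 0.69 ± 0.09 (adjusted p = 3.80e-05). At ZT12 it was at 62.0, 55.1, 56.6 and 51.0 CPM under NRF and at 43.1, 34.9, 48.8 and 37.1 CPM under DRF. The groups did not overlap (-0.45 ± 0.14, adjusted p = 0.0136). Under DRF the range of Ccl11 was 0.26 ± 0.11 and its rhythm just missed the threshold (adjusted p = 0.0509), and the rhythm differed between the regimens (adjusted p = 0.0146). Over the day, Ccl11 was lower under DRF by 0.17 (-0.17 ± 0.05, adjusted p = 0.0123), a call lost in 3 of 15 alternatives, among them the one with the macrophage marker covariate (-0.09, adjusted p = 0.227). Their receptor Ccr3 was low, with medians of 1.29 CPM under NRF and 1.02 CPM under DRF, and did not pass (-0.08 ± 0.15, adjusted p = 0.728).

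Cxcl12, the homeostatic ligand that retains leukocytes and progenitors through Cxcr4, showed the largest fall in mean level of the members. It ranged from 182 to 419 CPM with a median of 252 under NRF and from 135 to 281 CPM with a median of 197 under DRF. The ranges overlapped, and the DRF mean was lower at 7 of 7 time points. The difference was -0.44 ± 0.07 (adjusted p = 1.09e-06) and held in all 15 alternatives, with values of -0.49 to -0.38. None of these alternatives used a stromal or progenitor marker level as a covariate. Under NRF, Cxcl12 was rhythmic with a peak at 8.83 h ± 0.716 (adjusted p = 0.00192). At ZT8 the NRF mice were at 343, 401, 268 and 419 CPM and the DRF mice at 236, 255, 149 and 227 CPM, without overlap (-0.73 ± 0.17, adjusted p = 8.99e-04). At ZT12 the NRF mice were at 351, 339, 321 and 301 CPM and the DRF mice at 230, 205, 199 and 179 CPM, again without overlap. The range was 0.65 ± 0.12 under NRF and 0.40 ± 0.16 under DRF, and the rhythm difference did not pass (adjusted p = 0.109).

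The Cxcl12 promoter (chr6:117168285-117168584, plus strand, GRCm38.p6) is shown for the member with the largest difference in mean level.
Cxcl12: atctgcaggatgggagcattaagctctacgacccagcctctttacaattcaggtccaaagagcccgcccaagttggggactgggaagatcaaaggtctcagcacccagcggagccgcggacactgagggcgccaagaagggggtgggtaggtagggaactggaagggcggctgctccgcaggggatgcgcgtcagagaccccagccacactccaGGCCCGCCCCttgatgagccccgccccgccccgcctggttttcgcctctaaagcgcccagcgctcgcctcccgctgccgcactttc
Its capitals are a kappa B match that starts at -36. Kappa B letters were found in 50.8% of all promoters and in 20 of the 39 members in the table.

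Cxcr4, the signalling receptor of Cxcl12, ranged from 2.70 to 14.5 CPM with a median of 8.21 under NRF and from 3.62 to 12.3 CPM with a median of 8.39 under DRF. Its mean level did not pass the test (0.19 ± 0.11, adjusted p = 0.200). Its rhythm differed (adjusted p = 4.09e-04), with a peak at 18.8 h ± 0.776 and a range of 1.21 ± 0.27 under NRF against 0.52 ± 0.19 under DRF, where no rhythm was detected (adjusted p = 0.0798). At ZT8, Cxcr4 was at 2.70, 3.57, 9.44 and 4.12 CPM under NRF and at 10.1, 12.3, 9.48 and 11.5 CPM under DRF. No values overlapped, although NRF replicate 3 at 9.44 CPM came close to the lowest DRF mouse at 9.48 CPM (1.10 ± 0.31, adjusted p = 0.00596). Ackr3, the scavenger of Cxcl12, was rhythmic under both regimens, with a peak at 19.7 h ± 0.748 under NRF and 12.6 h ± 1.14 under DRF. Its DRF rhythm was lost in 3 of 11 alternatives, with adjusted p up to 0.0846. At ZT20 it was at 74.9, 85.0, 73.1 and 91.3 CPM under NRF and at 43.6, 63.4, 57.4 and 64.3 CPM under DRF, without overlap (-0.51 ± 0.16, adjusted p = 0.0187). Over the day Ackr3 had medians of 66.1 CPM under NRF and 59.5 CPM under DRF, and its mean difference of -0.10 ± 0.07 did not pass (adjusted p = 0.249).

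**Figure D5:**
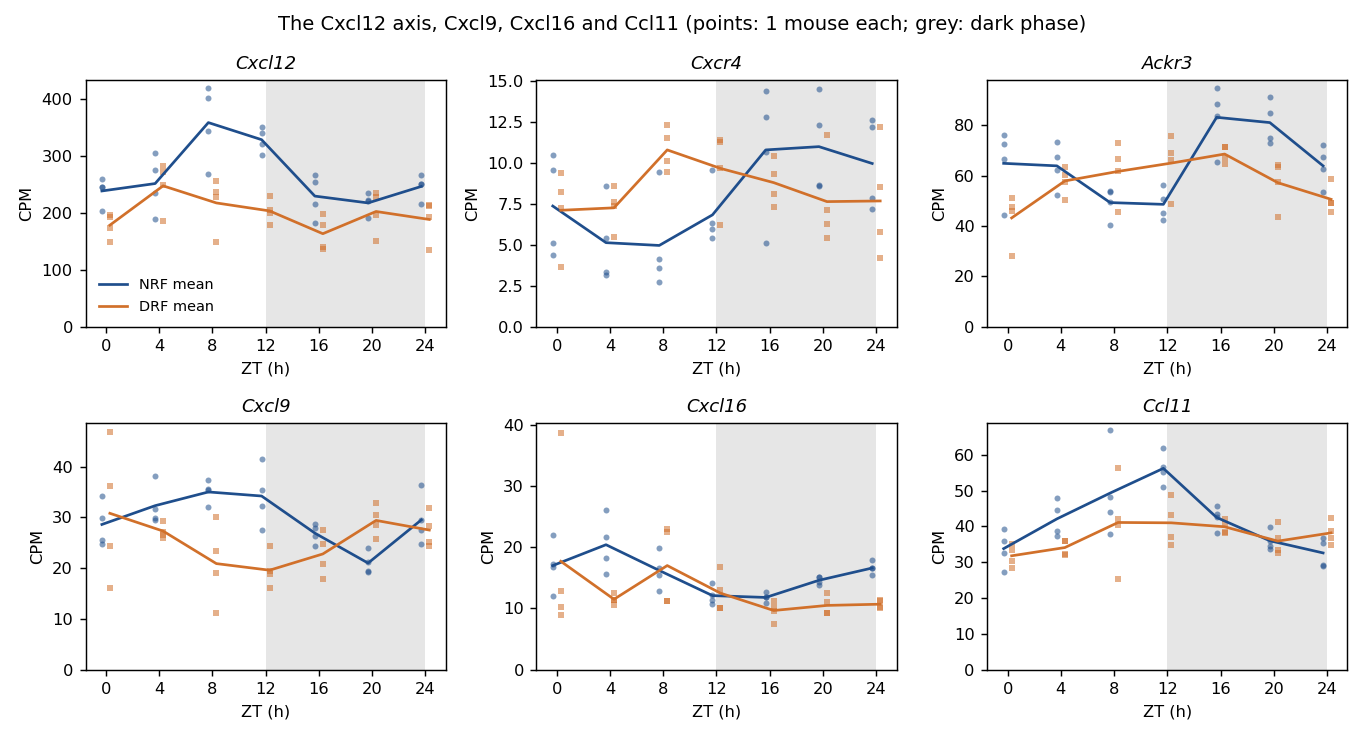
CPM over zeitgeber time for Cxcl12, its receptors Cxcr4 and Ackr3, and for Cxcl9, Cxcl16 and Ccl11; each point is 1 mouse, lines join the means of 4 mice, blue is NRF, orange is DRF and grey marks the dark phase. At ZT8 the mean of Cxcl12 is 358 CPM under NRF and 217 CPM under DRF, and at ZT12 that of Ccl11 is 56.2 CPM under NRF and 41.0 CPM under DRF.

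Cxcl9 and Cxcl10, ligands of Cxcr3 that interferon-gamma induces, and Cxcr3 itself, which marks effector T cells and natural killer cells, were all lower under DRF. Cxcl9 ranged from 19.2 to 41.5 CPM with a median of 29.5 under NRF and from 11.1 to 46.8 CPM with a median of 25.5 under DRF. The difference was -0.29 ± 0.07 (adjusted p = 0.00152), with broad overlap, and held in all 15 alternatives. Cxcl9 was rhythmic under NRF with a peak at 7.57 h ± 0.620 (adjusted p = 5.48e-05), was not called rhythmic under DRF (adjusted p = 0.131), and its rhythm differed between the regimens (adjusted p = 5.87e-05). At ZT8 its mean was 35.0 ± 2.24 CPM (SD, n = 4 mice) under NRF and 20.9 ± 7.93 CPM under DRF, and no values overlapped (limma, -0.80 ± 0.20, adjusted p = 0.00206). The lowest DRF mouse, at 11.1 CPM, was an apart library, and without the pair the difference at ZT8 was -0.54 ± 0.16 (adjusted p = 0.00820). At ZT20 the means were 21.0 ± 2.24 CPM (SD, n = 4 mice) under NRF and 29.4 ± 3.01 CPM under DRF, which did not pass (limma, 0.47 ± 0.20, adjusted p = 0.0854). Without the pair of libraries that stand apart, this time point passed. Cxcl10 was lower by 0.23 (-0.23 ± 0.08, adjusted p = 0.0281, lost in 6 of 15 alternatives). Cxcr3 was lower by 0.24 (-0.24 ± 0.06, adjusted p = 0.00189), with NRF values of 1.19 to 2.47 CPM and DRF values of 0.492 to 2.06 CPM and a lower DRF mean at 7 of 7 time points.

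The Cxcl9 promoter (chr5:92328030-92328329, minus strand, GRCm38.p6) is shown because the gene differed both in mean level and in rhythm.
Cxcl9: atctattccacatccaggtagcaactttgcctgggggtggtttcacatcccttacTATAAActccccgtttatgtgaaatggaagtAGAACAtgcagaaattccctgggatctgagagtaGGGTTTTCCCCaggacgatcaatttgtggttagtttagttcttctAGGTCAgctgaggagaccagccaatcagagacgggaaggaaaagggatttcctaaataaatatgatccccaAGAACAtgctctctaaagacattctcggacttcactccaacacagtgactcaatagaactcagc
From 5′ to 3′, its capitals are a TATAAA match at -195, an AGAACA at -164, overlapping kappa B matches at -130 and -129, an AGGTCA at -85 and another AGAACA at -14. AGAACA was found in 19% of all promoters and AGGTCA in 16.3%, and in 6 and 12 of the 39 members. CACGTG was found in 7.15% of all promoters and, among the members, in that of Xcr1. TTANGTAA was found in 2.32% of all promoters and in those of Ackr4 and Ccr6. TTCNNNGAA was found in 8.3% of all promoters and in those of Ccl17, Ccr6 and Cxcl14.

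The membrane-bound ligands Cxcl16 and Cx3cl1 were rhythmic under NRF. Cxcl16, the ligand of Cxcr6, peaked at 3.18 h ± 0.634 under NRF (adjusted p = 7.55e-05). It ranged from 10.8 to 26.0 CPM with a median of 15.3 under NRF and from 7.45 to 38.7 CPM with a median of 11.2 under DRF. The highest DRF values were 38.7 CPM in the apart library at ZT0 and 22.9 and 22.4 CPM at ZT8, the latter from the other apart library. The difference was -0.28 ± 0.09 (adjusted p = 0.0131) with all libraries and -0.36 ± 0.06 (adjusted p = 6.83e-06) without the pair, and the call was lost in 4 of 15 alternatives, with adjusted p up to 0.108. Its rhythm difference passed without the pair (adjusted p = 0.00455) and not with all libraries (adjusted p = 0.224). At ZT4, Cxcl16 was at 18.3, 15.6, 21.6 and 26.0 CPM under NRF and at 11.4, 12.6, 11.4 and 10.6 CPM under DRF, without overlap (-0.75 ± 0.23, adjusted p = 0.0120). Its receptor Cxcr6, found on natural killer T cells and resident T cells, was lower by 0.19 (-0.19 ± 0.05, adjusted p = 0.00425) at levels of 0.782 to 1.59 CPM under NRF and 0.579 to 2.30 CPM under DRF. Its rhythm difference passed without the pair (adjusted p = 0.00422) and not with it (adjusted p = 0.187).

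Cx3cr1, the fractalkine receptor of patrolling monocytes and resident macrophages, peaked in the light phase under both regimens. Under NRF it was at 1.81, 1.86, 2.38 and 2.75 CPM at ZT4 and at 0.556, 0.684, 0.405 and 0.496 CPM at ZT16. Under DRF it was at 2.03, 3.53, 1.37 and 1.85 CPM at ZT4 and at 0.638, 0.647, 0.922 and 0.588 CPM at ZT16. High and low times did not overlap under either regimen. The peak lay at 3.01 h ± 0.390 under NRF and at 5.82 h ± 0.895 under DRF, with ranges of 1.10 ± 0.11 and 1.25 ± 0.33 on the log2 scale. The apart libraries held 4.89 and 12.4 CPM of Cx3cr1 against at most 3.53 CPM in the other 54. Without them, the DRF peak was at 5.63 h ± 0.654, the range was 0.93, the shift was 2.61 h (95% interval 1.08 to 4.14 h), and the rhythm difference passed (adjusted p = 0.00446, against 0.0574 with all libraries). The interval of the shift was 0.848 to 4.77 h with all libraries and reached -0.416 h without ZT24, -0.264 h without the mice numbered 1 and -0.165 h without those numbered 2. The ligand Cx3cl1 peaked at 22.7 h ± 0.882 under NRF (adjusted p = 0.00722), and its mean level did not pass (0.04 ± 0.09, adjusted p = 0.773). Its rhythm difference also passed without the pair (adjusted p = 0.00990) and not with it (adjusted p = 0.144).

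The Cx3cr1 promoter (chr9:120068247-120068546, minus strand, GRCm38.p6) is shown as that of the member with the smallest shift among the 6 rhythmic under both regimens.
Cx3cr1: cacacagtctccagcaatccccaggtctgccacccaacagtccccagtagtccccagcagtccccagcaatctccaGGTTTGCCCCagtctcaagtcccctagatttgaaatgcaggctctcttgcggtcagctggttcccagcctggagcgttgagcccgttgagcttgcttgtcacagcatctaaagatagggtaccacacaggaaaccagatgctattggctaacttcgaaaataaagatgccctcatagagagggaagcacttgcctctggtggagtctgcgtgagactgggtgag
Its capitals are a kappa B match that starts at -174.

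Among the lymphoid homing ligands, Cxcl13, which draws Cxcr5-bearing B cells and is made in the milky spots of visceral fat, differed between the regimens in its rhythm. It ranged from 3.29 to 17.4 CPM with a median of 10.2 under NRF and from 2.23 to 15.2 CPM with a median of 7.76 under DRF. Its mean difference of -0.33 ± 0.13 narrowly missed the threshold (adjusted p = 0.0511). Under DRF, Cxcl13 was rhythmic (adjusted p = 0.0443) with a peak at 20.9 h ± 1.10 and a range of 0.97 ± 0.28, a call lost in 6 of 11 alternatives. Under NRF the range was 0.15 ± 0.25, and the rhythm differed (adjusted p = 0.0347; 0.0820 without the pair). At ZT12 it was at 10.5, 13.1, 7.25 and 12.6 CPM under NRF and at 3.70, 4.33, 5.30 and 5.15 CPM under DRF, without overlap (-1.05 ± 0.35, adjusted p = 0.0237). Its receptor Cxcr5 was near 1 CPM and did not pass (0.04 ± 0.10, adjusted p = 0.821), nor did Ccr7, the receptor of Ccl19 and Ccl21 on dendritic and T cells (-0.10 ± 0.05, adjusted p = 0.0970; 0.0407 without the pair). The scaffold copy of Ccl21a ranged from 0.0537 to 4.28 CPM under NRF and from 0 to 7.88 CPM under DRF (-0.21 ± 0.23, adjusted p = 0.515).

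Of the atypical receptors, Ackr1 and Ackr2 were lower under DRF, and the fitted peak of Ackr4 shifted by 8.17 h (95% interval 5.71 to 10.6 h). Ackr1, the chemokine transporter of venules, was lower by 0.18 (-0.18 ± 0.07, adjusted p = 0.0296), a call lost in 5 of 15 alternatives. Among these were the fit without the pair (-0.15, adjusted p = 0.0507) and the one with the macrophage marker covariate (-0.10, adjusted p = 0.293). Ackr2, a scavenger of inflammatory CC chemokines, was lower by 0.19 (-0.19 ± 0.07, adjusted p = 0.0261), a call lost in 3 of 15, among them the one with the macrophage marker covariate (-0.11, adjusted p = 0.295). The rhythm of Ackr2 differed (adjusted p = 0.00333). At ZT8, Ackr2 was at 5.85, 6.38, 4.47 and 5.96 CPM under NRF and 3.06, 3.25, 4.59 and 3.24 CPM under DRF, where only DRF replicate 3 overlapped the NRF mice. Ackr4, a scavenger of Ccl19, Ccl21 and Ccl25, peaked at 10.2 h ± 0.734 under NRF and at 18.4 h ± 0.985 under DRF. At ZT20 its mean was 1.81 ± 0.281 CPM (SD, n = 4 mice) under NRF and 3.52 ± 0.827 CPM under DRF. The lowest DRF mouse, at 2.91 CPM, was above the highest NRF mouse, at 2.03 CPM (limma, 0.68 ± 0.20, adjusted p = 0.0128). The DRF rhythm of Ackr4 was close to the threshold (adjusted p = 0.0460) and was lost in 10 of 11 alternatives, while the rhythm difference itself passed (adjusted p = 2.82e-05).

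The remaining members showed few changes. Ccr10, the receptor of Ccl27 and Ccl28, differed in rhythm (adjusted p = 7.20e-04), with a peak at 19.1 h ± 0.767 under NRF. Ccl27a, a skin-type ligand of Ccr10, also differed in rhythm (adjusted p = 0.0394), and was higher under DRF at ZT24 (0.59 ± 0.16, adjusted p = 0.00661). At ZT0, the same time of day in other mice, the difference of Ccl27a did not pass (limma, -0.07 ± 0.16, adjusted p = 0.812). Ccl25 with medians of 5.73 CPM under NRF and 5.44 CPM under DRF, its receptor Ccr9, the neutrophil ligand Cxcl1, the dendritic cell ligand Ccl22 and the Xcl1 receptor Xcr1 passed neither the mean level nor the rhythm difference test, with mean differences of -0.06 to 0.05.

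A group of ligands of epithelia and mucosa were dominated by the pair of apart libraries. Cxcl17 was at 203 CPM in DRF replicate 4 at ZT0 and at 4.73 CPM in DRF replicate 1 at ZT8, against 0 to 0.671 CPM in the other 54 libraries, 33 of which held no read. Ccl28 was at 146 and 19.0 CPM against at most 2.68 CPM, and Cxcl14 at 23.4 and 100 CPM against at most 17.3 CPM. Cxcl15 was at 19.5 CPM in DRF replicate 1 at ZT8 and at most 0.475 CPM in the other 54. It passed the read filter through that library, with a mean of 1.81 reads elsewhere, and Cxcl17 had a mean of 1.48 reads outside the pair. Their mean differences with all libraries, 0.36 ± 0.29, 0.28 ± 0.27, 0.15 ± 0.14 and 0.21 ± 0.15, did not pass and fell to 0.05, -0.06, -0.02 and 0.03 without the pair. The calls of Ccl28 at ZT0 (1.95 ± 0.68, adjusted p = 0.0417), Cxcl15 at ZT8 (1.04 ± 0.40, adjusted p = 0.0483) and Cx3cr1 at ZT8 (0.78 ± 0.29, adjusted p = 0.0406) were lost without it (adjusted p = 0.169, 0.720 and 0.430). Without the pair, the rhythm differences of Ccl28 (adjusted p = 4.32e-04) and Cxcl14 (adjusted p = 0.0103) passed, against adjusted p = 0.455 and 0.673 with it. The same pair had the high epithelial and neutrophil marker sums given above, and the part of these markers in the levels was not tested.

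By time of day, 36 of 280 tests of a member at a time point passed, 24 lower and 12 higher under DRF, in 24 members. These counts include Cxcl15 at ZT8, which entered the tests through a library of that group and is not read as a result. At ZT0, 3 members passed, against 16.7% of all genes; at ZT4, 7 members, against 31.5%; at ZT8, 9 members, against 25.9%; at ZT12, 9 members, against 25.2%; at ZT16, 1 member, against 16.5%; at ZT20, 3 members, against 21.1%; and at ZT24, 4 members, against 18.6%. At ZT4 all 7 were lower under DRF, namely Ccl6, Ccl9, Cxcl10, Cxcl16, Ccr1, Ccr2 and Cxcr6. At ZT8, beside Cxcl15, 5 were higher (Ccl2, Ccl7, Ccl12, Cxcr4 and Cx3cr1) and 3 were lower (Cxcl9, Cxcl12 and Ackr2). At ZT12, 3 were higher (Ccl2, Ccl7 and Ccl12) and 6 were lower (Ccl11, Cxcl9, Cxcl12, Cxcl13, Cxcr6 and Ackr2). Cxcl12 was the member that passed at ZT16. Without the pair of apart libraries 54 tests passed, and the share of all genes that passed also rose at each of the 7 time points. The counts were 2 members at ZT0 against 18% of all genes, 9 at ZT4 against 37.7%, 11 at ZT8 against 30.5% and 12 at ZT12 against 30.3%. They were 3 at ZT16 against 22.5%, 8 at ZT20 against 25.5% and 9 at ZT24 against 24.1%. Of the 3 calls at ZT0 none passed in limma without the pair. The difference of Ccl28 went from 1.95 to 0.43 (adjusted p = 0.169), that of Ackr3 from -0.58 to -0.39 (adjusted p = 0.0609) and that of Ccr2 from -0.51 to -0.47 (adjusted p = 0.0607). Cxcl16 (-0.61 ± 0.18, adjusted p = 0.0134) and Ccl12 (-0.66 ± 0.22, adjusted p = 0.0298) passed at ZT0 in their place. At ZT8, Cxcl15 and Cx3cr1 were lost, and 4 members were gained, namely Ackr3 (0.44 ± 0.15, adjusted p = 0.0212), Cxcr6 (-0.37 ± 0.12, adjusted p = 0.0131), Ccl28 (-0.70 ± 0.22, adjusted p = 0.0125) and the scaffold copy of Ccl21a (-1.55 ± 0.52, adjusted p = 0.0208). The members gained at the other times were Ccl24 and Ccr3 at ZT4, Ackr3, Ccl24 and Cxcl14 at ZT12, Cxcl9, Cxcl16, Ccl2, Ccl12 and Ccr3 at ZT20, and Cxcl10, Cxcl14, Cxcl16, Cx3cl1 and Cx3cr1 at ZT24. At ZT16 the count without the pair includes Cxcl15 and Cxcl17, which are under the minimum of 10 reads in the remaining libraries and are not read as results, so Cxcl12 was again the member that passed.

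Neighbours on a chromosome did not all move together. Ccl2, Ccl7, Ccl11, Ccl12 and Ccl8 lie in this order within 81.2 kb (GRCm38 chr11:82035571-82116799). Ccl2, Ccl7 and Ccl12 peaked at ZT22.0 to ZT0.730 under NRF, while Ccl11, between Ccl7 and Ccl12, peaked at 10.7 h. Ccl5, Ccl9, Ccl6, Ccl3 and Ccl4 lie within 139 kb of the same chromosome (chr11:83525778-83664683), and Ccl6 and Ccl9 were both lower under DRF at ZT4. Ccr9, Cxcr6, Xcr1, Ccr1, Ccr3 and Ccr2 lie within 435 kb (chr9:123678439-124113557). Of these, Cxcr6, Ccr1 and Ccr2 were lower under DRF, and Ccr9, Xcr1 and Ccr3 did not pass. Cxcl9 and Cxcl10 lie within 27.5 kb (chr5:92321347-92348889), and both were lower.

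Other genes of the pathway were counted by list. Of 42 measured signalling genes, 7 were lower and 6 higher under DRF, and the rhythm differed for 18. These are 16.7%, 14.3% and 42.9%, against 16.1%, 17.2% and 51.2% of all genes. The lower genes included the atypical receptor-like gene Ccrl2 (-0.30 ± 0.07, adjusted p = 3.76e-04) and the leukocyte cytoskeleton gene Was (-0.24 ± 0.05, adjusted p = 7.27e-05). The higher genes included the receptor kinase Grk5 (0.37 ± 0.06, adjusted p = 9.52e-07) and the G protein subunit Gng2 (0.31 ± 0.04, adjusted p = 6.31e-08). Of 10 measured proteases and syndecans that cut or hold chemokines, 4 were lower (40%, against 16.1% of all genes): Mmp2 (-0.67 ± 0.09, adjusted p = 4.61e-08), which trims Cxcl12, Mmp14 (-0.51 ± 0.10), Mmp9 (-0.49 ± 0.08) and Dpp4 (-0.25 ± 0.07). Of 27 measured genes that induce or restrain chemokine expression, 5 were lower, 1 was higher and 15 differed in rhythm, which are 18.5%, 3.7% and 55.6%, against the same shares of all genes. The lower ones were the interferon factor Irf1 (-0.30 ± 0.04, adjusted p = 2.01e-07), the receptor Il1r1 (-0.22 ± 0.04), the adaptor Myd88 (-0.17 ± 0.04), the NF-kappa B subunit Rela (-0.10 ± 0.03) and the glucocorticoid receptor gene Nr3c1 (-0.17 ± 0.05), which restrains chemokine expression, and the higher one was Stat6 (0.12 ± 0.03, adjusted p = 0.00644).

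Markers of the cells that carry these receptors and of stromal cells were counted by list, to be read against the 16.1% of all genes lower under DRF. Of 14 macrophage markers, 7 were lower (50%) and 7 did not pass, with summed levels of 1128 to 2554 CPM (median 1500) under NRF and 1066 to 1772 CPM (median 1374) in the 26 DRF libraries without the apart pair. Of 8 adipose progenitor markers, 5 were lower (62.5%), with sums of 2056 to 3804 CPM (median 2780) under NRF and 1792 to 2998 CPM (median 2138) under DRF. Of 10 natural killer and innate lymphoid markers, 5 were lower (50%), with medians of 15.9 and 12.7 CPM. Of 12 T cell markers tested, 4 were lower (33.3%) and 1 higher, with sums of 12.6 to 25.6 CPM (median 16.2) under NRF and 10.7 to 21.9 CPM (median 16.6) under DRF, and of 12 B cell markers 1 was lower (8.33%), with medians of 138 and 99.3 CPM. Of 7 mast cell and eosinophil markers, 2 were lower (28.6%), with medians of 48.7 and 39.4 CPM. Of 6 mesothelial markers, 4 were lower (66.7%), with sums of 247 to 671 CPM (median 481) under NRF and 206 to 614 CPM (median 370) under DRF. Of 4 tested lymph node stroma markers, 3 were lower (75%), with sums over 6 measured genes of 121 to 214 CPM (median 165) under NRF and 106 to 176 CPM (median 140) under DRF. Dendritic cell markers were lower for 2 of 6 (33.3%) and higher for 1, with medians of 43.9 and 40.3 CPM. Neutrophil markers were lower for 2 of 6 tested (33.3%) and higher for 1, with medians over 9 genes of 37.7 and 29.4 CPM. Endothelial markers were lower for 2 of 6 (33.3%), with medians of 792 and 810 CPM. Smooth muscle markers were lower for 1 of 5 (20%), with medians of 345 and 304 CPM. No marker of these lists was at 0 in every library. With the macrophage marker level as a covariate, an alternative added after the data were seen, 9 members differed in mean level instead of 15, of which Ccl2, Ccl5, Ccl7, Ccr2, Cxcl9, Cxcl12, Cxcr3 and Cxcr6 were among those 15. The 7 calls lost were those of Ccl11, Ccl24, Ccr1, Ackr1, Ackr2, Cxcl10 (-0.19, adjusted p = 0.121) and Cxcl16 (-0.22, adjusted p = 0.0933). With the T and B cell marker level as a covariate, 10 differed. Marker levels are RNA levels and do not count cells, so the part of cell numbers in the lower receptor levels was not tested.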

How the data were processed

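The authors sequenced VAT RNA of 56 mice (7 time points, 4 mice per time point and regimen). Per the submitters' processing notes, reads were aligned with HISAT2 2.0.5 and counted with featureCounts 1.5.0-p3 on mm10. Values named TPM were deposited. Judged from its numbers, the deposited value is a score: log2(CPM + 1) divided by exon length and rescaled per library. From its steps, whole reads were recovered for 25920 of 25939 genes; with a tolerance of 0.02 reads, 99.9935% of 1446525 values up to 30000 reads came out whole. For 881 genes the length was itself chosen from the values, and 19 genes could not be resolved. The plan allowed linear TPM or a logarithm, and log2(CPM + 1) was used. Gene positions are those of GENCODE vM21 (GRCm38).

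Genes with a mean of at least 10 reads were tested. Mean level, rhythm difference and single time points were tested in limma 3.58.1 (R 4.3.3) on log2(CPM + 1) with an intensity trend, and p-values were adjusted by Benjamini-Hochberg over all genes tested; count models were not used. Rhythms were tested on the deposited values by JTK_CYCLE and by Lomb-Scargle, and both p-values were joined with Fisher's method as in MetaCycle (scipy 1.17.1, numpy 2.4.6 and pandas 2.3.3 under Python 3.11.15). Phase shifts came from cosine fits on log2(CPM + 1) with Wald tests (the CircaCompare model). Each program was tested on simulated data over 17268 genes, with 200 changed genes per test. The tests recovered 200 mean changes (14 others called), 180 rhythm changes (9 others), 149 changes at a single time point (8 others) and 141 rhythms (5 others). The simulated mean changes were larger than any called for a member. All changes were placed in genes with more reads than several tested members had. The spread was fixed and no library stood apart, so these counts do not give the power for the differences reported here.

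The members and lists were chosen with earlier results of these data known. Full values were given for the 3 ligands and 3 receptors with the highest level per length, the 8 members with the largest difference in mean level among those past the threshold, and the 8 with the largest peak-to-trough range among rhythmic members; other members were given by class. The time points printed, the other members with values at single time points (Ackr2, Ackr4, Ccl9 and the epithelial ligands among them) and the other genes named by list were chosen after their values were seen. Some genes of the family and lists are not reported here. The replicate numbers name different mice. Same-numbered libraries did not deviate together, with a median correlation of 0.039 over 364 pairs, so the numbers were not used as pairs. Alternatives changed the filter, pseudocount, scaling, test, covariates, time points and libraries. Promoter sequences are from RefSeq (GRCm38.p6), and 39 of the 53 members were matched.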

Additional observations from a re-analysis of the deposited data

Results flagged for a closer look

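In groups of 4 mice, a single mouse lay far from the other 3 in 9 of the 224 groups examined for the fully described members, where chance alone gives about 1 in 20. The value in brackets is the gap to the nearest mouse divided by the range of the group on the log2 scale. Cxcl13 had 3 such groups, with replicate 3 highest at 16.4 CPM under NRF at ZT16 (0.974; the others 7.36 to 7.52 CPM), replicate 4 lowest at 6.43 CPM under NRF at ZT0 (0.921) and replicate 1 lowest at 3.58 CPM under DRF at ZT0 (0.860). Ccl24 also had 3, with replicate 4 highest at 20.6 CPM under NRF at ZT20 (0.910), replicate 2 lowest at 11.9 CPM under DRF at ZT4 (0.865) and replicate 1 lowest at 6.80 CPM under DRF at ZT8 (0.841), the last being a library that stands apart. Ccr2 was highest at 41.1 CPM in replicate 2 under NRF at ZT8 (0.928). Ccl2 was highest at 8.64 CPM in replicate 3 under DRF at ZT8 (0.896). Ccl5 was highest at 2.65 CPM in replicate 1 under DRF at ZT20 (0.838).

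The difference between DRF and NRF itself changed over the day for 14 members (35.0% of those tested), against 51.2% of all genes. This was tested in limma by letting both 24-h terms depend on the regimen. The adjusted p was 9.28e-09 for Ccl12, 1.94e-06 for Ccl2, 5.17e-06 for Ccl7, 2.82e-05 for Ackr4, 5.87e-05 for Cxcl9, 1.20e-04 for Ackr3, 4.09e-04 for Cxcr4, 7.20e-04 for Ccr10, 0.00333 for Ackr2, 0.0112 for Ccl6, 0.0146 for Ccl11, 0.0267 for Ccl9, 0.0347 for Cxcl13 and 0.0394 for Ccl27a. For Ccl12, Ccl2 and Ccl7 the difference was positive and past the threshold at ZT8, and at ZT20 it was -0.58 (adjusted p = 0.0512), -0.64 (adjusted p = 0.0537) and -0.65 (adjusted p = 0.0786).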

How the results depend on the processing

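Against 15 members with a different mean level, 9 were called when the macrophage marker level was a covariate, 8 of them among the 15. Leaving out the mice of 1 number at a time, 8 to 13 were called, of which 8 to 12 were among the 15. The fewest, 8, came without the mice numbered 2. Rhythm differences numbered 9 to 14 and tests at single time points 20 to 32 with a replicate number left out, again lowest without number 2. Members rhythmic under NRF numbered 11 to 15 and under DRF 4 to 7. Under DRF, a limma F test of the cosine with the replicate block called 13. Members with a phase shift numbered 1 to 5, and 3 with a mean of at least 100 reads, a filter that leaves fewer members tested. The replicate block left 16 members with a different mean level, 14 with a different rhythm and 40 tests at single time points, and 15 rhythmic under NRF by the F test. No called difference in mean level changed its sign under any alternative. The median difference of all genes was -0.0035 on the log2 scale, -0.0361 with scaling by total reads and -0.0003 with scaling by the median of ratios. The cause of these changes was not tested. Depth limits the 13 members under 10 reads, and log2(CPM + 1) compresses changes of members near 1 CPM.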
